A study of Mus musculus with 6 samples.

Results

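Basal keratinocytes hold on to the skin through hemidesmosomes and focal adhesions. In a hemidesmosome, integrin α6β4 and collagen XVII span the membrane, bind laminin-332 in the basement membrane and connect on the inside to plectin and BPAG1, which tie into the keratin network. Integrin α3β1 also binds laminin-332 and laminin-511, integrin α2β1 is a collagen receptor of the same cells, and the tetraspanin CD151 associates with the laminin-binding integrins. The 9 genes described here encode these parts: the integrin chains Itga2, Itga3, Itga6, Itgb1 and Itgb4, the laminin-332 chains Lama3 and Lamb3, Col17a1 and Cd151. They were chosen by function and found by symbol among 55487 Ensembl genes measured in each library.

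The libraries are poly(A) RNA of epidermal cell suspensions from mouse back skin at postnatal day 0, 3 labelled Znf750 cKO and 3 labelled Control. The series calls the first group a knockout of Znf750, which encodes a zinc finger protein that drives keratinocyte differentiation, and asks about its role in skin development. The sources used here do not give the strain, the alleles, any Cre driver or the genotype of the Control mice. Nor do the labels say whether a library is 1 pup or a pool, so p-values measure the spread between these libraries only. The epidermis was freed from the dermis with dispase and broken up with trypsin, and no sort is named.

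The deposited values are FPKM, which divides reads by transcript length and by the size of the library, so levels can be compared between genes. Steps that whole reads leave in low values place the depth at an estimated 21500000 to 35400000 reads per library. Multiples of such a depth can fit equally well, and the smallest was taken. At that depth the lowest value of any of the 9 genes, Itga2 in Control replicate 2, rests on an estimated 439 reads, taking the length of its longest transcript. The mouse symbol of the targeted gene is Zfp750. It stood at 0.99, 0.83 and 1.47 FPKM in Znf750 cKO libraries, against 44.82, 32.02 and 34.94 FPKM in Control libraries (limma adjusted p = 4.6e-05). The basal keratins Krt5 and Krt14 were among the strong transcripts of both groups. Krt5 had 6646 to 6909 FPKM in Znf750 cKO and 6275 to 6973 FPKM in Control, and Krt14 had 6118 to 7473 FPKM in Znf750 cKO and 5073 to 5617 FPKM in Control.

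Of the 9 anchoring genes 3 rose in Znf750 cKO, the integrin chains Itga3, Itgb1 and Itgb4, and 6 did not pass the threshold. A gene is said to have risen or fallen where its adjusted p was under 0.05 in limma, fitted to log2(FPKM + 1) of all 13688 genes with at least 1 FPKM in at least 3 libraries. All 9 genes passed that filter. In the same fit 4.22% of all tested genes were called, 1.11% as higher and 3.1% as lower. The log2 change was positive for each of the 9 genes, against 37.8% of tested genes. It ran from 0.09 for Cd151 to 1.09 for Itga3, with a median of 0.56, while the median over all tested genes was -0.08. The Znf750 cKO and Control values did not overlap in 6 of the 9, against 28.0% of tested genes, or 8.28% counting only those higher in Znf750 cKO. Before adjustment, 7 of the 9 had a limma p under 0.05, all higher in Znf750 cKO, against 21.3% of tested genes, or 5.94% in that direction. In RNA of a mixed suspension, a larger share of basal cells and more RNA per basal cell cannot be told apart. The 3 calls are sensitive to single libraries: 0 of the 9 genes passed without Control replicate 1, 2 or 3 or without Znf750 cKO replicate 1, 1 passed without Znf750 cKO replicate 3 and 2 passed without Znf750 cKO replicate 2. With the replicate number as a block 6 passed, and Itga2, Itga6 and Col17a1 were the added ones. That fit called 392 of the 13688 tested genes, 136 of them as higher. Its pairing is in no label and was chosen from these same values, so its added calls here and below are not separate support.

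**Figure D1:**
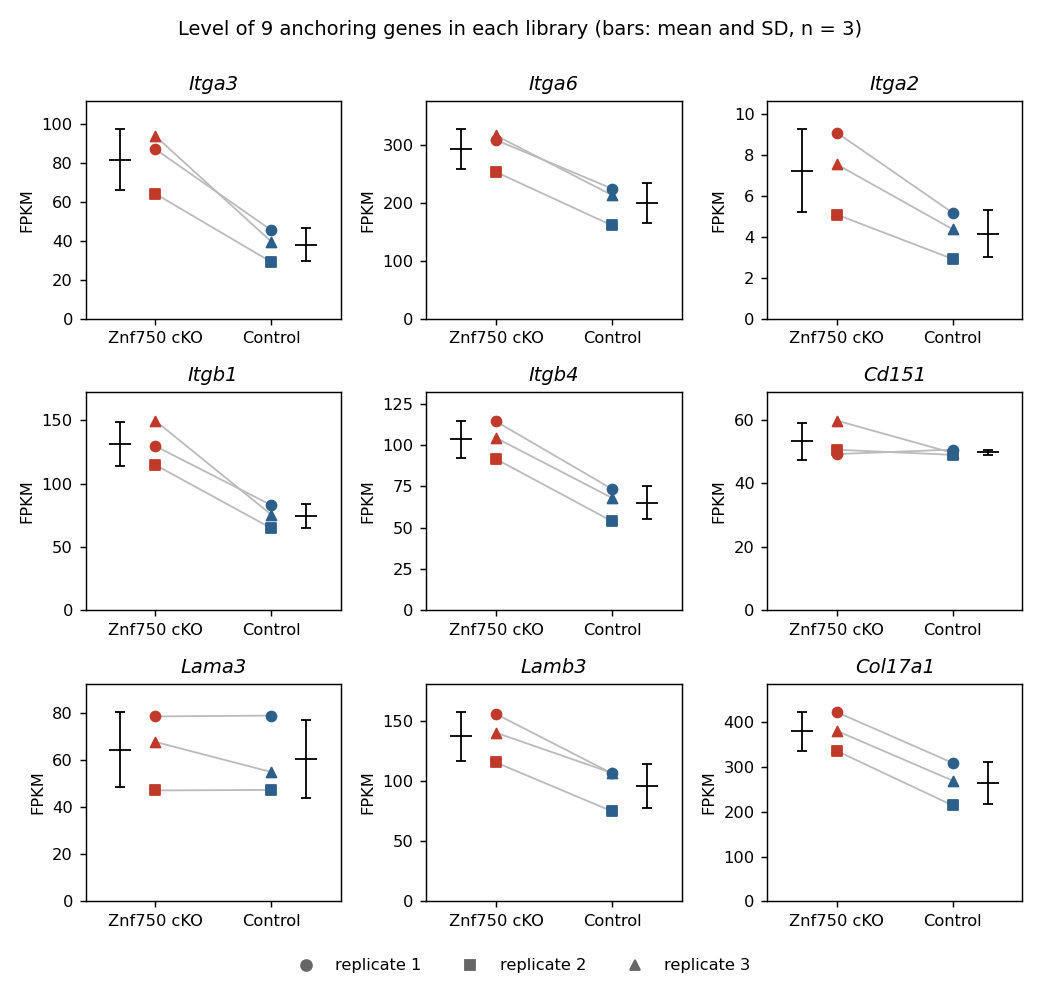
FPKM of the 9 genes in each library, Znf750 cKO at left and Control at right of each panel, with mean and SD (n = 3) beside the points and grey lines joining libraries of the same replicate number. Lama3 and Cd151 overlap widely between the groups, Itga2 overlaps by 1 library, and the other 6 genes separate.

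Integrin α3β1 showed the largest difference among these receptors. Itga3 (ENSMUSG00000001507, chromosome 11, 95044474 to 95076801, minus strand, GRCm38) encodes the laminin-binding α3 chain. It had 87.2, 64.2 and 93.9 FPKM in Znf750 cKO libraries, against 45.5, 29.1 and 39.6 FPKM in Control libraries. Every Znf750 cKO library lay above every Control library, with a gap of 18.7 FPKM between the closest ones. The means were 81.8 ± 15.6 FPKM in Znf750 cKO and 38.1 ± 8.28 FPKM in Control (SD, n = 3 each), a 2.15-fold difference, and the log2 change was 1.09 (SE 0.20, limma adjusted p = 0.030). Its partner Itgb1 (ENSMUSG00000025809, chromosome 8, 128685654 to 128733200, plus strand) encodes the β1 chain, which pairs with many α chains. It had 129.7, 114.8 and 149.8 FPKM in Znf750 cKO libraries, against 82.9, 64.7 and 75.5 FPKM in Control libraries. Here too the groups were separate, and all 3 Znf750 cKO libraries exceeded 110 FPKM. Itgb1 averaged 131 ± 17.5 FPKM in Znf750 cKO and 74.4 ± 9.16 FPKM in Control (SD, n = 3 each), and limma put its log2 change at 0.81 (SE 0.14) with an adjusted p of 0.021. With 1 library left out, Itga3 passed in 1 and Itgb1 in 2 of 6 fits.

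Promoter sequence of this receptor pair is shown because both of its chains rose. The stretches below end at the base before the outermost annotated start of the gene, come from RefSeq on GRCm38.p6 and run 5′ to 3′ on the strand of the gene. Capitals mark a match to CCNNAGG, the motif reported at sites bound by human ZNF750.
Itga3, chr11:95076802-95076964, minus strand: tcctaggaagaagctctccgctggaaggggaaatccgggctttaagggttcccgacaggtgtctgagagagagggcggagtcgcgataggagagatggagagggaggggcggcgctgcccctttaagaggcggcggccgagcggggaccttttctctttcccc
Itgb1, chr8:128685404-128685653, plus strand: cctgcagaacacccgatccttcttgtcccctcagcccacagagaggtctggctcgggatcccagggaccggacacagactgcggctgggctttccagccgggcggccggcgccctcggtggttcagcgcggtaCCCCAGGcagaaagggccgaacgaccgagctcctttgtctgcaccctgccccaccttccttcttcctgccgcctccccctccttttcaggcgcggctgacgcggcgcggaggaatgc

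The Itgb1 stretch held 1 match to CCNNAGG, beginning 117 bases before the start, and the Itga3 stretch held 0. The RefSeq table used here held 9 promoter windows of 250 bases for 6 of the genes, Itga2, Itga3, Itgb1, Lamb3, Col17a1 and Cd151. Promoters of Itga6, Itgb4 and Lama3 were not analysed here. Both strands were searched. A CCNNAGG match was present in 5 of the 9 windows, against 48.1% of 32851 windows of all genes. TGANTCA, the AP-1 motif, was present in 0 of the 9 windows, against 6.75% of all windows, which says only that these letters are not in these few windows. The share with CCNNAGG among these windows was thus near that of promoters in general, and a match describes letters only.

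Of integrin α6β4, the receptor of the hemidesmosome, the β chain rose and the α chain did not pass. Itgb4 (ENSMUSG00000020758, chromosome 11, 115974709 to 116008412, plus strand) encodes the β4 chain, whose long cytoplasmic tail binds plectin. It had 114.3, 91.5 and 104.3 FPKM in Znf750 cKO libraries, against 73.4, 53.8 and 67.9 FPKM in Control libraries. The groups were separate by 18.1 FPKM, and the lowest library of each was replicate 2. Its mean was 103 ± 11.4 FPKM in Znf750 cKO and 65.0 ± 10.1 FPKM in Control (SD, n = 3 each), and limma put its log2 change at 0.67 (SE 0.14) with an adjusted p of 0.044. Leaving out any single library ended the call, with a limma adjusted p of 0.055 to 0.157 in the 6 fits, and it passed under 2 of 4 other scalings. An exon of Itgb4 shares bases with B230344G16Rik on the opposite strand, whose reads an unstranded count would not separate.

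Itga6 (ENSMUSG00000027111, chromosome 2, 71745616 to 71858416, plus strand) encodes the α6 chain and was the strongest integrin gene of these libraries. It had 308.2, 252.9 and 315.8 FPKM in Znf750 cKO libraries, against 224.2, 160.7 and 213.0 FPKM in Control libraries. No values overlapped, yet the log2 change of 0.56 (SE 0.16) did not pass in limma (adjusted p = 0.091). With the replicate number as a block the same change had an SE of 0.08 and an adjusted p of 0.044. Control replicate 2 was the lowest library of the 6.

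Itga2 (ENSMUSG00000015533, chromosome 13, 114833081 to 114932100, minus strand) encodes the collagen-binding α2 chain and was the weakest of the 9 genes. It had 9.08, 5.08 and 7.53 FPKM in Znf750 cKO libraries, against 5.16, 2.91 and 4.36 FPKM in Control libraries. The ranges overlapped by 0.08 FPKM, through Znf750 cKO replicate 2 and Control replicate 1. Between libraries of the same number the Znf750 cKO value was 1.76-fold, 1.75-fold and 1.73-fold the Control value for replicates 1, 2 and 3. The log2 change was 0.67 (SE 0.24), with a limma adjusted p of 0.16, and of 0.0497 with the block.

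The laminin-332 chains Lamb3 and Lama3 differed by unequal amounts. Lamb3 (ENSMUSG00000026639, chromosome 1, 193207699 to 193343878, plus strand), the β3 chain, had 156.1, 115.7 and 140.5 FPKM in Znf750 cKO libraries, against 106.7, 75.1 and 107.0 FPKM in Control libraries. The gap between the groups was 8.76 FPKM and the log2 change of 0.52 (SE 0.17) did not pass (limma adjusted p = 0.14, and 0.0506 with the block). All 3 Znf750 cKO libraries exceeded all Control libraries.

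Lama3 (ENSMUSG00000024421, chromosome 18, 12333819 to 12583013, plus strand), the α3 chain of laminin, had 78.4, 47.0 and 67.6 FPKM in Znf750 cKO libraries, against 78.8, 47.3 and 54.9 FPKM in Control libraries. The groups covered nearly the same range. Replicate 2 was the lowest library of both groups. Its means were 64.4 ± 15.9 FPKM in Znf750 cKO and 60.3 ± 16.4 FPKM in Control (SD, n = 3 each), and the log2 change was 0.09 (SE 0.25, limma adjusted p = 0.89). Within replicate numbers 1 and 2 the Znf750 cKO value was 0.996-fold the Control value, and within number 3 it was 1.23-fold. Lama3 shares exon bases with the antisense gene Gm29200, which had 2.25, 0.78 and 1.66 FPKM in Znf750 cKO libraries, against 1.94, 0.66 and 1.35 FPKM in Control libraries.

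Col17a1 (ENSMUSG00000025064, chromosome 19, 47646344 to 47692094, minus strand) encodes collagen XVII, the transmembrane collagen of the hemidesmosome, and was the most abundant of the 9 transcripts. It had 422.1, 335.7 and 380.5 FPKM in Znf750 cKO libraries, against 308.9, 213.9 and 269.3 FPKM in Control libraries. All Znf750 cKO libraries exceeded all Control libraries, by 26.8 FPKM or more. The log2 change of 0.53 (SE 0.16) did not pass (limma adjusted p = 0.11, and 0.048 with the block).

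Cd151 (ENSMUSG00000025510, chromosome 7, 141467392 to 141471473, plus strand) encodes the tetraspanin. It had 49.2, 50.6 and 59.8 FPKM in Znf750 cKO libraries, against 50.7, 49.0 and 49.6 FPKM in Control libraries. The groups overlapped, and Znf750 cKO replicate 3 stood above the other 5 libraries. The log2 change was 0.09 (SE 0.10, limma adjusted p = 0.68). Gm10575, which shares exon bases with Cd151 on the opposite strand, was listed at no more than 0.97 FPKM in any library.

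**Figure D2:**
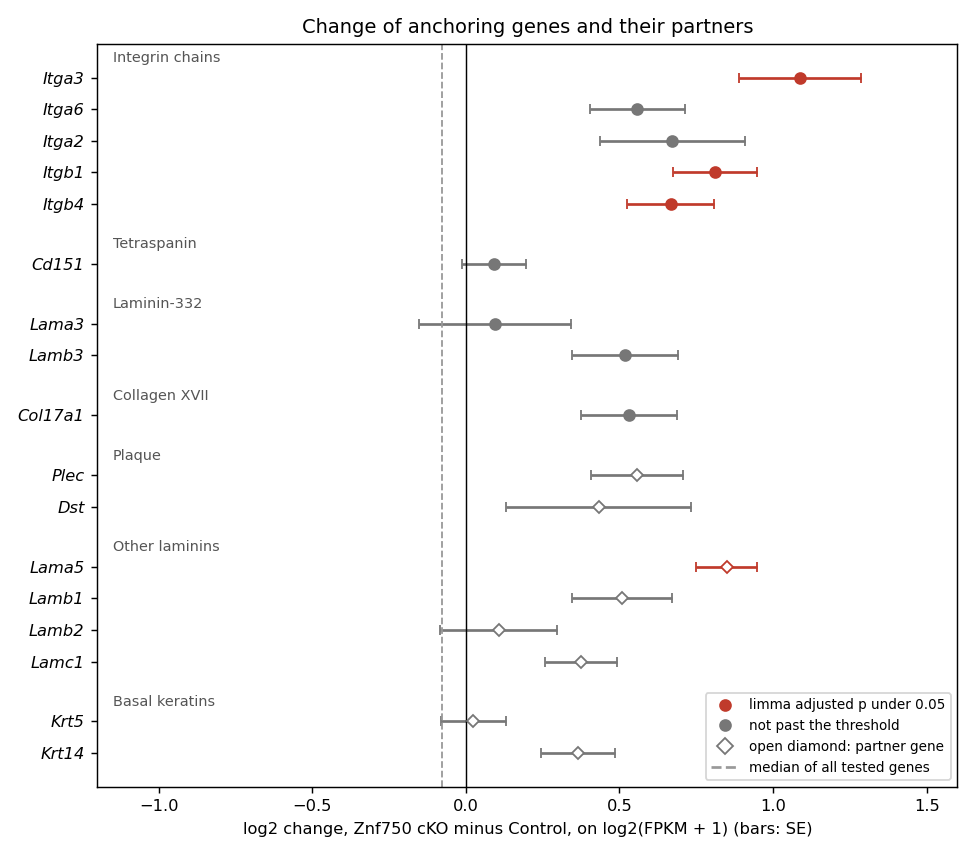
Log2 change (Znf750 cKO minus Control, on log2(FPKM + 1)) with its SE for the 9 genes (filled circles) and partner genes (open diamonds), grouped by structure. Itga3, Itgb1, Itgb4 and Lama5 (red) passed limma, while Lama3, Cd151 and Krt5 lie between 0.02 and 0.09.

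By level, the 9 genes kept much the same order in both groups, with 1 gene changing place. In Znf750 cKO the order of mean FPKM was Col17a1, Itga6, Lamb3, Itgb1, Itgb4, Itga3, Lama3, Cd151 and Itga2. In Control, Itga3 stood below Lama3 and Cd151 and the other genes had the same order. Neighbours whose ranges overlapped in Znf750 cKO were Lamb3 and Itgb1, Itgb4 and Itga3, Itga3 and Lama3, and Lama3 and Cd151. In Control the ranges of Col17a1 and Itga6 overlapped, as did those of each neighbouring pair from Lamb3 down to Cd151. Itga2 lay far below the rest in both groups, at 7.23 ± 2.02 FPKM in Znf750 cKO and 4.14 ± 1.14 FPKM in Control (SD, n = 3 each).

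Ratios between genes within a library do not depend on a factor that scales the whole library. They were not corrected for the trend with transcript length described below. Of 8 ratios given here, 5 did not overlap between the groups, each with a two-sided exact permutation p of 0.10, the smallest that 3 libraries against 3 can give (0.18 adjusted over the 9 ratios planned). The share of gene pairs in general that separate was not taken. Itga3 is part of Itga3/Itga6, Itga3/Itgb1 and Cd151/Itga3, so these are not separate results. The ratio of Itga3 to Itga6 was 0.283, 0.254 and 0.297 in Znf750 cKO libraries, against 0.203, 0.181 and 0.186 in Control libraries, so α3 transcripts were more frequent relative to α6. Itga3 also stood higher relative to Itgb1, at 0.672, 0.559 and 0.627 in Znf750 cKO, against 0.548, 0.450 and 0.525 in Control.

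The ratio of Lama3 to Lamb3 was 0.502, 0.406 and 0.481 in Znf750 cKO libraries, against 0.738, 0.629 and 0.513 in Control libraries. Each Znf750 cKO library thus had fewer Lama3 transcripts per Lamb3 transcript than any Control library. The ratio of Cd151 to Itga3 averaged 0.663 ± 0.114 in Znf750 cKO and 1.35 ± 0.296 in Control, and that of Col17a1 to Itgb4 averaged 3.67 ± 0.023 in Znf750 cKO and 4.05 ± 0.139 in Control (SD, n = 3 each). The ratio of Itgb1 to Itgb4 was 1.13, 1.25 and 1.44 in Znf750 cKO libraries, against 1.13, 1.20 and 1.11 in Control libraries, and these overlapped (exact permutation p = 0.20, and 0.26 adjusted over the 9 ratios). The 2 chains of α6β4 had overlapping ratios, with Itga6 to Itgb4 at 2.83 ± 0.175 in Znf750 cKO and 3.06 ± 0.074 in Control (SD, n = 3 each).

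Set against the basal keratins of the same library, the separations depended on which keratin was used. Each gene was divided by the geometric mean of Krt5 and Krt14 and multiplied by 1000. Itga3 then stood at 13.6, 9.55 and 13.1 in Znf750 cKO libraries, against 7.83, 5.14 and 6.33 in Control libraries. Itgb1 stood at 20.3, 17.1 and 20.8 in Znf750 cKO, against 14.3, 11.4 and 12.1 in Control, and Itgb4 at 17.9, 13.6 and 14.5 in Znf750 cKO, against 12.6, 9.50 and 10.9 in Control. These 3 integrin genes were separate between the groups on this scale (exact permutation p = 0.10 each, and 0.26 adjusted over the 9 genes). Itga6, Itga2, Lamb3 and Col17a1 overlapped between the groups, yet each was higher in Znf750 cKO within all 3 pairs of like-numbered libraries. Over Krt5 alone 6 genes were separate, Itga3, Itga6, Itgb1, Itgb4, Lamb3 and Col17a1. The share of all genes separate on these keratin scales was not taken. Over Krt14 alone Itga3 and Itgb1 were separate and higher in Znf750 cKO, Cd151 was separate and lower, and Itgb4 overlapped. The log2 difference of Itgb1 was 0.80 over Krt5 and 0.46 over Krt14, and that of Itga6 was 0.54 over Krt5 and 0.20 over Krt14. Lama3 and Cd151 had log2 differences of -0.10 each over both keratins, with overlapping groups, and the sign turned with the keratin. Lama3 stood at 0.07 over Krt5 and -0.27 over Krt14, and Cd151 at 0.07 over Krt5 and -0.27 over Krt14.

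**Figure D3:**
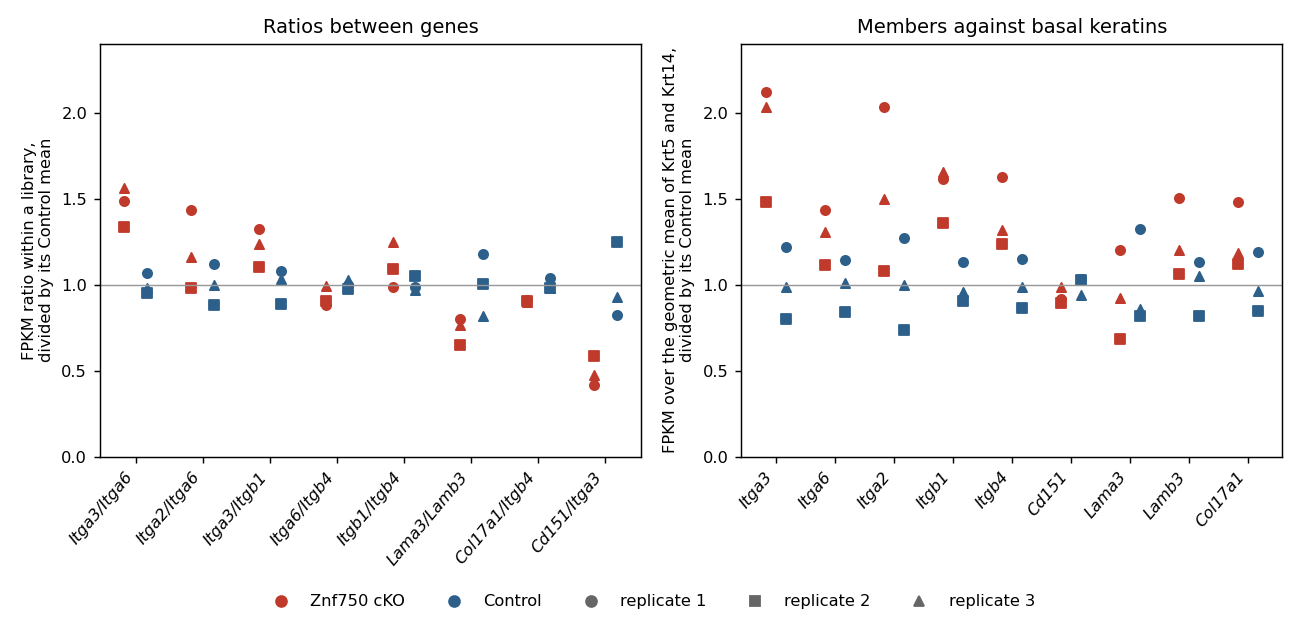
Left, FPKM ratios of 8 gene pairs, and right, each gene over the geometric mean of Krt5 and Krt14, for 3 Znf750 cKO and 3 Control libraries, each divided by its Control mean. Itga3/Itga6 lies above 1 and Lama3/Lamb3 and Cd151/Itga3 below 1 in every Znf750 cKO library, and Itga3, Itgb1 and Itgb4 stay above Control at right.

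Among the other laminin chains, Lama5 stood out. This gene encodes the α5 chain of laminin-511, a ligand of α3β1 and α6β1. It had 127.3, 130.7 and 137.3 FPKM in Znf750 cKO libraries, against 71.1, 67.8 and 79.7 FPKM in Control libraries. Lama5 rose by 0.85 on the log2 scale (SE 0.10, limma adjusted p = 0.0062). Its call held whichever library was dropped (6 of 6 fits), under 4 of 4 other scalings and with the block, though not without replicate 2 of both groups (adjusted p = 0.081). Its partner chains in that trimer did not pass: Lamb1 averaged 15.0 ± 1.71 FPKM in Znf750 cKO and 10.3 ± 2.26 FPKM in Control, and Lamc1 averaged 41.8 ± 2.63 FPKM in Znf750 cKO and 32.1 ± 4.25 FPKM in Control (SD, n = 3 each). Of 8 other laminin chains followed here 5 were tested, 1 rose and 4 did not pass, with a median log2 change of 0.38.

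The plaque proteins on the inner face of the hemidesmosome, plectin (Plec) and BPAG1 (Dst), both had positive log2 changes, 0.56 and 0.43, and neither passed in limma (adjusted p = 0.085 and 0.47). Dst, the more abundant, spread widely, at 287.3, 158.1 and 198.9 FPKM in Znf750 cKO and 208.3, 110.5 and 158.8 FPKM in Control. Of 13 tested basement membrane partners 0 rose and 0 fell in limma, and 1, Agrn, had an unadjusted p under 0.05. Their median log2 change was 0.22, and the most abundant, the heparan sulfate proteoglycan Agrn, averaged 159 ± 8.93 FPKM in Znf750 cKO and 124 ± 17.6 FPKM in Control (SD, n = 3 each, limma adjusted p = 0.15). Col7a1, the anchoring fibril collagen, averaged 107 ± 13.3 FPKM in Znf750 cKO and 96.5 ± 12.3 FPKM in Control (SD, n = 3 each) and was chosen after its values were seen.

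On the cytoplasmic side of focal adhesions, 1 of 20 tested adaptors rose and 19 did not pass, with a median log2 change of 0.08. The riser was Lims1, or PINCH, which binds integrin-linked kinase. It had 22.7, 22.8 and 24.0 FPKM in Znf750 cKO libraries, against 17.7, 13.0 and 14.8 FPKM in Control libraries (log2 change 0.59, SE 0.13, limma adjusted p = 0.045, and 0.061 with the block), and dropping any single library ended the call. The caveolar protein Cav1, the most abundant of the list, had a log2 change of 0.25 and did not pass. Of 9 tested proteases that process laminin-332 or collagen XVII 0 passed in limma and 2, Mmp14 and Plau, had an unadjusted p under 0.05. Their median log2 change was -0.09. The most abundant of these, the membrane metalloproteinase Mmp14, averaged 77.0 ± 3.55 FPKM in Znf750 cKO and 59.6 ± 9.04 FPKM in Control (SD, n = 3 each, limma adjusted p = 0.15). Plau went the other way, at 31.1 ± 2.28 FPKM in Znf750 cKO and 43.8 ± 5.34 FPKM in Control (SD, n = 3 each). Its groups were separate (log2 change -0.48, limma adjusted p = 0.068).

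Integrin chains and tetraspanins outside the basal set went both ways. Of 8 tested other integrin chains 1 fell and 7 did not pass, and of 8 tested tetraspanins 1 fell and 7 did not pass, with median log2 changes of -0.15 and 0.01. Before adjustment, 4 of the 8 tetraspanins had a limma p under 0.05, against 21.3% of all tested genes, and they went both ways. Among these Cd82 had 44.3, 44.0 and 32.3 FPKM in Znf750 cKO, against 24.8, 27.4 and 30.5 FPKM in Control (log2 change 0.52, limma adjusted p = 0.097), and Tspan14 had a log2 change of 0.31, both with separate groups. Tspan15 was lower, at 1.24, 1.62 and 1.75 FPKM in Znf750 cKO, against 2.93, 2.06 and 3.17 FPKM in Control. Its groups were separate too (log2 change -0.55, limma adjusted p = 0.14). The genes that fell are leukocyte genes: Itgb2, the shared β chain of leukocyte integrins, had 0.3, 0.12 and 0.08 FPKM in Znf750 cKO, against 2.0, 1.27 and 1.09 FPKM in Control (limma adjusted p = 0.035), and the tetraspanin Cd53 had 0.48, 0.39 and 0.98 FPKM in Znf750 cKO, against 5.08, 3.18 and 2.61 FPKM in Control (limma adjusted p = 0.019). Both reached 1 FPKM in the Control libraries only, so they entered the test through the group where they were high. All 8 tested genes of a list of myeloid and Langerhans markers fell, and of these H2-Aa entered in the same way. The Langerhans marker Cd207 was not tested, at or under 0.06 FPKM in every library of both groups. The summed level of the 9 listed markers was 14.4 to 19.0 FPKM in Znf750 cKO libraries and 110.5 to 188.8 FPKM in Control libraries. Their part in the levels of Itgb2 and Cd53 was not tested, and Itgb2 and Cd53 had adjusted p = 0.0503 and 0.052 in limma with the block. Of the 3 fits without 1 library in which they passed the filter, Itgb2 was called in 0 and Cd53 in 1. The most abundant of these lists were Itgb5, at 58.6 ± 6.49 FPKM in Znf750 cKO and 63.6 ± 3.51 FPKM in Control, and Cd9, at 574 ± 53.0 FPKM in Znf750 cKO and 523 ± 5.04 FPKM in Control (SD, n = 3 each), neither past the threshold.

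Cell type markers give the makeup against which these levels stand. Of 8 basal markers 1 rose, the cadherin Cdh3. Their log2 changes went both ways, from -0.58 for Igfbp2 and -0.33 for Krt15 to 0.31 for Trp63, 0.36 for Krt14 and 0.61 for Cdh3, with a median of -0.01. The summed level of the basal markers was 15100 to 16298 FPKM in Znf750 cKO and 13932 to 15504 FPKM in Control. That of 9 suprabasal markers was 24827 to 35676 FPKM in Znf750 cKO and 21496 to 33905 FPKM in Control, mostly Krt1 and Krt10. Within that list Ivl, a cornified envelope precursor, rose to 151.8 ± 27.0 FPKM in Znf750 cKO, against 44.5 ± 16.8 FPKM in Control (SD, n = 3 each, limma adjusted p = 0.022). Filaggrin (Flg) had 967, 994 and 747 FPKM in Znf750 cKO, against 1336, 2309 and 1325 FPKM in Control, with separate groups (limma adjusted p = 0.10). Of 11 hair follicle markers 2 rose, 1 fell and 8 did not pass, with a median log2 change of 0.19. Over all tested genes 4.22% were called. Lhx2 averaged 43.3 ± 2.08 FPKM in Znf750 cKO and 24.8 ± 2.36 FPKM in Control (limma adjusted p = 0.011). Tchh averaged 80.2 ± 33.4 FPKM in Znf750 cKO and 14.2 ± 1.93 FPKM in Control (limma adjusted p = 0.027). Krt79 was lower, at 132 ± 13.9 FPKM in Znf750 cKO and 348 ± 95.8 FPKM in Control (SD, n = 3 each, limma adjusted p = 0.020). The part of these shifts in the levels of the anchoring genes was not tested. Of other cells that carry some of the 9 genes, the endothelial markers Cdh5, Kdr and Emcn were at or under 0.10 FPKM in every library, though Pecam1 reached 31.1 FPKM. The platelet marker Gp9 was listed at 0 in every library, and Itga2b had 4.72 to 9.43 FPKM in Znf750 cKO and 6.53 to 8.21 FPKM in Control. Of 4 tested platelet and red cell markers 1 fell, Pf4, at 0.74, 1.12 and 1.61 FPKM in Znf750 cKO, against 4.05, 2.76 and 2.78 FPKM in Control (limma adjusted p = 0.048). The median log2 change of the 4 was -1.01, and the summed level of the list was 10.7 to 15.0 FPKM in Znf750 cKO and 19.1 to 39.1 FPKM in Control. The fibroblast marker Mfap5 was listed at 0 and Col1a1 had at most 0.59 FPKM, while Dcn had 104.6 to 164.5 FPKM in Znf750 cKO and 126.1 to 152.5 FPKM in Control.

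Of the 9 genes, 8 also shared a pattern between libraries of 1 group, and Cd151 did so less. Replicate 2 was below the group mean for 9 of 9 genes in both groups, and it was the lowest library for 8 of 9 in Znf750 cKO and 9 of 9 in Control. The median deviation of the 9 genes from the group mean on log2(FPKM + 1) was -0.20 in Znf750 cKO replicate 2 and -0.29 in Control replicate 2, while over all tested genes it was -0.02 and -0.04. After the group means were taken off, 8 of the 9 genes correlated with each other at 0.77 to 0.99 over the 6 libraries. Cd151 correlated with them at 0.09 to 0.70. The estimated depth differed between these libraries and the labels name no preparation batch, so the correlations are descriptions only.

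Replicate 2 was also the library in which long transcripts stood low. In the 2369 tested protein-coding genes with the longest transcripts, 5203 bases or more, which hold 4 of the 9 genes, the median deviation was -0.16 in Znf750 cKO replicate 2 and -0.11 in Control replicate 2. In the 2370 with the shortest, up to 1927 bases, which hold Cd151, it was 0.10 in Znf750 cKO replicate 2 and 0.04 in Control replicate 2. The suprabasal keratins Krt1 and Krt10 stood high in replicate 2, at 0.31 and 0.38 in Znf750 cKO and 0.25 and 0.27 in Control. The basal keratins Krt5 and Krt14 deviated by -0.02 and 0.01 in Znf750 cKO replicate 2 and by -0.08 and -0.04 in Control replicate 2. A part of transcript length or cell makeup in the low replicate 2 values was not tested. Between groups, the median log2 change was -0.12 in the shortest bin and -0.03 in the longest. With the trend with transcript length taken off each library, 5 of the 9 genes passed. This setting was added after the data were seen. When the replicate block was kept in the same fit, 7 passed. Of 13670 tested genes, 643 were called in the first of these fits and 301 in the fit with the block. Lama3 and Cd151 passed in neither.

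**Figure D4:**
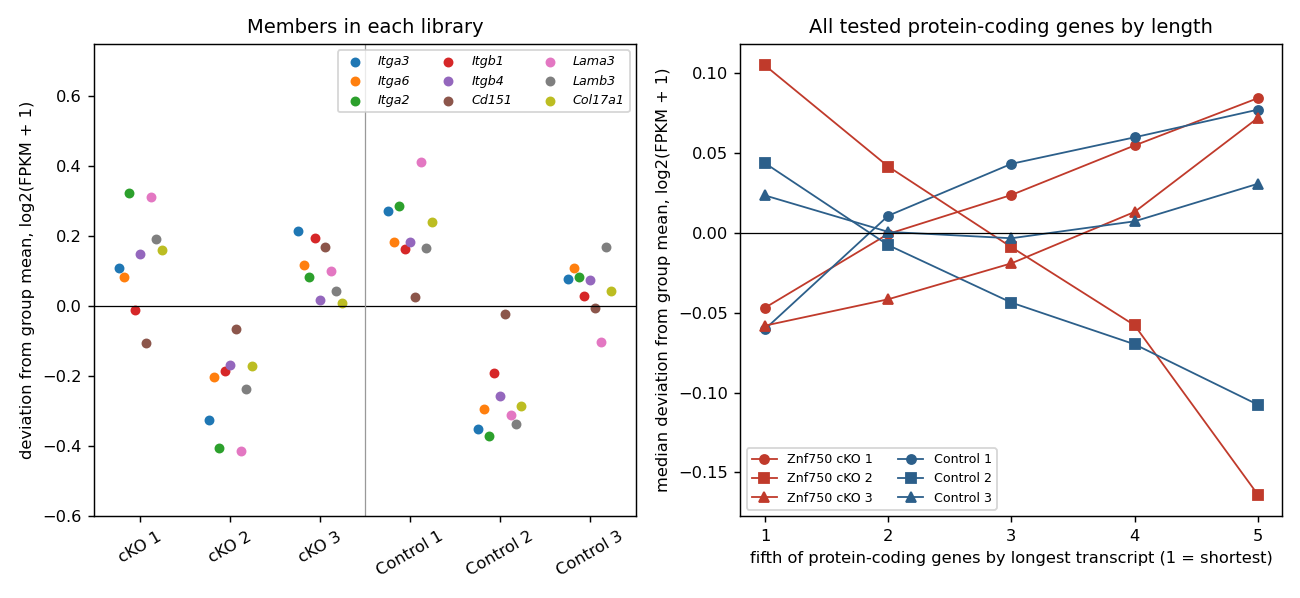
Left, deviation of each of the 9 genes from its group mean on log2(FPKM + 1) in each library, and right, the median deviation of tested protein-coding genes in 5 bins of transcript length. Replicate 2 of both groups is low for nearly all of the 9 genes and falls with length, to -0.16 in Znf750 cKO and -0.11 in Control.

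Itgb1 had the smallest p of the 9 genes, and its pattern over the 6 libraries was compared with that of 7058 genes with a mean of at least 10 FPKM. The 5 genes with the highest Pearson r of log2(FPKM + 1) were Mapkbp1, a scaffold of JNK signalling, Shisa5, Zfand5, the homeobox gene Irx5 and the acyl-CoA synthetase Acsl3, with r from 0.995 to 0.997. Group means were not taken off, so genes higher in Znf750 cKO tend to a high r, and 6 libraries give many high values among so many genes. Among the anchoring genes Itga3 came nearest, at rank 7 with r = 0.991. Itgb4 and Itga6 had r = 0.962 and 0.960, and Lama3 had r = 0.415.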

How the data were processed

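Poly(A) RNA of 3 Znf750 cKO and 3 Control epidermal suspensions was sequenced as 100-nucleotide single reads, per the labels' protocols. The authors deposited FPKM per gene, per the file headers, printed to 2 decimals. The submitters' processing notes name, without roles, RSEM 1.2.28, STAR 2.5.2a, cutadapt 1.15, Trim Galore 0.4.5 and DESeq2, and as builds mm10 and GRCm38. The sources used here give neither the annotation release nor a filter. RSEM shares reads that fit several genes between them, and no strand setting is stated.

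Symbols matched 55141 of 55487 identifiers, and coordinates are those of GENCODE M21 on GRCm38. limma 3.58.1 in R 4.3.3 (statmod 1.5.0) was run on log2(FPKM + 1), without covariates beside the group, with a trended prior variance and robust estimation, for genes that reached 1 FPKM in 3 or more libraries. P-values were adjusted after Benjamini and Hochberg over all 13688 tested genes. Fold changes on this scale understate the change of low genes. The fit was tested on simulated data. Ratios were tested by exact permutation in scipy 1.17.1, and plots used matplotlib 3.10.9. The estimated depth rests on 69.0% to 82.3% of low values of short genes with 1 transcript lying within 0.1 read of a whole number. Chance gives 20% at a depth fixed in advance, whereas this depth was chosen for a high share. It entered no test.

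The replicate numbers come from the titles, which do not say what they mark. Deviations from group means correlated at 0.31, 0.17 and 0.48 between like-numbered libraries 1, 2 and 3, all over the limit of 0.1. The numbers were therefore treated as pairs in the fit with a block, although Znf750 cKO replicate 2 correlated at 0.24 with Control replicate 1. No label gives this pairing. It was chosen from the same values that the block fit uses, so smaller p-values from that fit are not separate support. The 9 genes, the lists of partner genes and markers and the tests were chosen with earlier results of these data known. Named genes are the 9 genes, Zfp750, Krt5, Krt14, each partner past the threshold, the most abundant partner of each list and the genes most like the one with the smallest p. Other genes named, among them Lamb1, Lamc1, Plec, Plau, Cd82, Tspan14 and single markers, were chosen after their values were seen. One planned ratio and one partner gene are not reported here. Alternatives were another pseudocount, no filter, 4 scalings, a plain variance model, the block, left-out libraries and, added later, a length correction and leaving out replicate 2 of both groups.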

Additional observations from a re-analysis of the deposited data

How the results depend on the processing

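The length correction and leaving out replicate 2 of both groups were chosen after seeing the data. The count of anchoring genes that changed was 3, and 3 with a pseudocount of 0.1, median-ratio or upper-quartile scaling. It was 2 with quantile normalization or without the variance trend and robust estimation, 1 as TPM, 0 with no filter on low values, 6 with the replicate block, 0 without replicate 3 of both groups, 1 without replicate 2 of both groups, and 5 with the transcript-length correction, or 7 with that correction and the replicate block. With 1 library left out it ran from 0 to 2. The count over all genes was 577, against 392 with the replicate block, 85 with no filter, 226 without replicate 3 of both groups, 57 without replicate 2 of both groups and 301 with the length correction and the block, and it ran from 99 to 395 with 1 library left out. Median-ratio scaling, which centres the median log2 change near 0, gave 260 higher and 298 lower, quantile normalization 201 and 218, the length correction 328 and 315, and the FPKM as deposited 152 and 425. The number of anchoring genes whose groups did not overlap was 6 to 8 in every setting that gave it. It was 6 in the main setting, against 28.0% of tested genes. The share of all genes was not taken in the other settings. Groups with fewer libraries also separate more easily, so these counts say little about robustness. The log2 change of Lama3 ran from -0.061 to 0.302 with 1 library left out, below 0 without Znf750 cKO replicate 1 or Control replicate 2, and was -0.0061 without replicate 3 of both groups. That of Krt5 ran from -0.015 to 0.061 with 1 library left out, below 0 without Control replicate 2, and was -0.053 with quantile normalization and -0.0048 without replicate 2 of both groups. No other of the 9 genes changed sign in any setting. The 8 ratios between genes kept their direction with each library left out. Over the basal keratins Lama3 stood at -0.10, but at 0.11 without Znf750 cKO replicate 2 and 0.12 without Control replicate 1. The causes of these shifts were not tested, and the number of libraries limits the precision.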
